A study of Mus musculus with 14 samples.

Results

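Extracellular proteases and their inhibitors were followed through 9 genes: the matrix metalloproteases Mmp2, Mmp14 and Mmp15, the metalloprotease inhibitors Timp1, Timp2 and Timp3, the plasminogen activators Plat and Plau, and Spink3, a Kazal-type trypsin inhibitor. All 9 were found by name among the 24054 genes of each table. They were chosen by function and by their TPM and expected counts across the 6 groups, with results of these data already known. Their levels are therefore a description, and the fitted values printed for 7 of them come from a fit over all genes but are not independent support. Spink3 was picked for its very pattern, so no p-value is given for it, and Plau was too low to be tested.

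RNA of mouse embryonic stem cells (ESCs) and of cells derived from them was sequenced from low input in 14 libraries of 6 groups. The d0con and d0ko groups (n = 2 each) were undifferentiated ESCs from red-fluorescent feeder layers of mitomycin-treated embryonic fibroblasts, sorted as Cherry-negative cells. The d3con and d3ko groups (n = 3 each) had differentiated towards endoderm for 3 days with Activin A at 12 ng/ml on feeder cells that make Wnt3a, and were sorted as Venus-positive cells. The con groups had the genotype Foxa2-Venus-KO/+, in which H2B-Venus under the Foxa2 promoter replaces 1 allele of the endoderm transcription factor Foxa2, so the controls have a single functional copy. The ko groups were Foxa2-Venus-KO/Foxa2-Venus-KO and had no functional copy. In each genotype 1 clone gave replicates 1 and 3 and another gave replicate 2. The d2-FVFn and d2-FVFp groups (n = 2 each) were Venus-negative and Venus-positive cells of the T119 ESC line (TetON-Foxa2-Venus), sorted after 48 h of doxycycline at 40 ng/ml without feeder cells. Foxa2 itself was at 34.81 to 58.64 TPM in d3con and at 0.11 to 0.19 TPM in d3ko, where TPM is a transcript level scaled for gene length and library total. It was at 2.99 and 2.01 TPM in d2-FVFn and at 168.57 and 159.81 TPM in d2-FVFp.

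Matrix metalloproteases are zinc enzymes that cut collagens, laminins and other extracellular proteins, and tissue inhibitors of metalloproteases (TIMPs) bind and block them. Mmp14 and Mmp15 are anchored in the cell membrane. Mmp2 is secreted as an inactive proenzyme, which Mmp14 activates at the cell surface in a complex that also contains Timp2. Plat and Plau are serine proteases that turn plasminogen into plasmin. Cells of the early embryo that move and form new layers remodel the basement membrane on which they rest, and these enzymes and inhibitors take part in that process.

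The sorted populations were first examined with cell type markers. Pluripotency markers (6 genes) summed to 13800 to 15700 TPM in the day 0 libraries and to 562 to 985 TPM in d3con. In d3ko they summed to 15400 TPM in replicate 1 and to 17400 TPM in replicate 3, within or above the day 0 range, but to 2670 TPM in replicate 2. Dppa5a made up most of the sum at day 0 and in d3ko, where it was at 14200.14, 1866.5 and 15542.86 TPM in replicates 1, 2 and 3. Sox2, Zfp42 and Klf4 were also lowest in d3ko replicate 2, at 14.74, 40.05 and 5.74 TPM. Pou5f1, at 522.5, 500.9 and 943.71 TPM, was below all day 0 libraries (1335.26 to 1467.3 TPM), and Nanog was at 254.49, 240.12 and 345.13 TPM. Definitive endoderm markers (6 genes) summed to 750.0 to 960.0 TPM in d3con and to 29.2 to 164.0 TPM in d3ko, although the labels call both groups endoderm cells. Endothelium and blood markers (6 genes) summed to 40.9 to 71.2 TPM at day 0, 52.0 to 108.0 TPM in d3con and 88.0 to 168.0 TPM in d3ko. Extraembryonic endoderm markers (6 genes) summed to 31.8 to 119.0 TPM at day 0, 10.1 to 21.5 TPM in d3con and 21.4 to 47.3 TPM in d3ko. Fibroblast markers (12 genes), which feeder cells express, summed to 13.8 and 16.1 TPM in d0con, 41.0 and 149.0 TPM in d0ko, 62.0 to 316.0 TPM in d3con and 140.0 to 377.0 TPM in d3ko. Of these 12 markers, 3 to 4 were over 1 TPM in d0con, 6 to 9 in d0ko, 5 to 10 in d3con and 8 to 11 in d3ko. Of the 6 defining ones (Col1a1, Col3a1, Dcn, Lum, Thy1 and Prrx1), Lum was at 0 in d0con replicate 2 and none was at 0 in the other day 0 and day 3 libraries. Fap, another of the 12, was at 0 in 6 of these 10 libraries. Dcn was lower in d3ko, at 0.57 to 3.99 TPM, than in d0ko, at 4.41 and 17.41 TPM. Col1a1 was higher in d3ko, at 67.21 to 259.57 TPM, than in d0ko, at 16.94 and 57.59 TPM. In the feeder-free d2 libraries the sum was 3.76 to 6.37 TPM, with 1 to 3 of the 12 markers over 1 TPM, and Col3a1, Lum or Prrx1 was at 0 in 3 of the 4 libraries. In such bulk samples, fewer cells of a type and less RNA per cell cannot be told apart. Library totals were 14142788 to 27278237 expected counts.

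**Figure D1:**
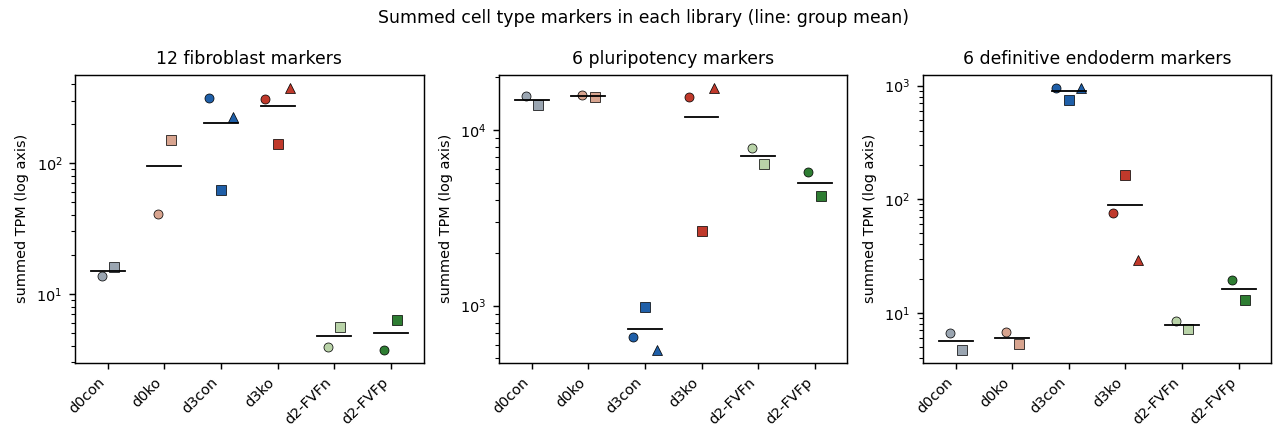
Summed TPM (log axis) of 12 fibroblast, 6 pluripotency and 6 definitive endoderm markers in each of the 14 libraries, with a line at each group mean. Replicates 1 and 3 of d3ko lie with the day 0 libraries in the pluripotency panel, at 15400 and 17400 TPM, and replicate 2 lies at 2670 TPM.

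Mmp15, Mmp14 and Timp2 had higher mean levels in d3con than in d0con and in d2-FVFp than in d2-FVFn. So had Plat and Spink3, without overlap of the groups in either system. The share of all genes with such an order was not counted, and the members were chosen with these values known. The promoters of 3 of the 5 are shown. Promoters were taken from RefSeq (GRCm38.p6) for 5 members, Mmp14, Mmp15, Timp1, Timp2 and Timp3. A member without a promoter here is not thereby shown to lack a RefSeq entry. The 250 bases before the annotated start are printed here from 5′ to 3′ on the strand of the gene. Each match to GGGCGG (a GC box, either strand) is in capitals.
Mmp15 (chr8:95352046-95352295, plus strand): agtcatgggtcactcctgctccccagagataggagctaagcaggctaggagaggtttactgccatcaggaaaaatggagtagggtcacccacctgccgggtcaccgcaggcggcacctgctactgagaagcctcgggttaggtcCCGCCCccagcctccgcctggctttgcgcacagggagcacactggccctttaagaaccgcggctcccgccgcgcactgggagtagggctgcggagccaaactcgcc
Mmp14 (chr14:54431348-54431597, plus strand): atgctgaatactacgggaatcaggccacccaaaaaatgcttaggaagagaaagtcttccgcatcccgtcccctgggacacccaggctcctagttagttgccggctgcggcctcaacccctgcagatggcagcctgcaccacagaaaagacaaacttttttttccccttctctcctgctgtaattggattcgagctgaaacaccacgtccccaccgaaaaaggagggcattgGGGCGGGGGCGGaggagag
Timp2 (chr11:118355412-118355661, minus strand): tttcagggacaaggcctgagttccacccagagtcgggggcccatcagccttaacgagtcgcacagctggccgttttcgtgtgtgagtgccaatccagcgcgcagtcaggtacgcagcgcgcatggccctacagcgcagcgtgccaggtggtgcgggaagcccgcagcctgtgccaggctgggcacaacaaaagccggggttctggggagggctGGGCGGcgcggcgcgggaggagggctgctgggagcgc

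The motif GGGCGG was found on either strand in all 5 of these windows (Mmp14, Mmp15, Timp1, Timp2 and Timp3) and in 32.7% of 32851 windows of the same length in the RefSeq table. TGTTTAC, a forkhead core motif, was in none of the 5 windows and in 3.17% of all windows. TGANTCA, the AP-1 motif, was likewise in none of the 5 and in 6.75% of all. No match overlaps one of another motif, and a match describes the letters only. GC content of the windows was 63.6% for Mmp15, 55.2% for Mmp14 and 68.0% for Timp2, against a median of 52.4% over all windows.

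Mmp15 (chr8:95352296-95374293, GRCm38), a membrane-type metalloprotease, was at 2.13 and 2.62 TPM in d0con and at 2.83 and 2.25 TPM in d0ko. It was at 34.91, 26.39 and 30.72 TPM in d3con and at 4.33, 6.14 and 4.93 TPM in d3ko. All d3con libraries lay above all d3ko libraries, and these lay above the day 0 libraries of both genotypes. In the doxycycline line Mmp15 was at 2.59 and 3.12 TPM in d2-FVFn and at 12.47 and 10.02 TPM in d2-FVFp, again without overlap. By group mean the order was d0con, d0ko, d2-FVFn, d3ko, d2-FVFp and d3con, and of these neighbours only the first 3 groups overlapped.

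Mmp14 (chr14:54431598-54442456), the membrane-type enzyme that activates pro-Mmp2, was at 24.86 and 21.17 TPM in d0con and at 16.09 and 15.95 TPM in d0ko. It was at 64.64, 37.22 and 66.70 TPM in d3con, all above the 24.88, 29.52 and 18.12 TPM of d3ko. It was at 27.16 and 29.46 TPM in d2-FVFn and at 53.28 and 46.37 TPM in d2-FVFp. Its groups fell into a lower set, from d0ko at a mean of 16.0 TPM up to d2-FVFn at 28.3 TPM, and a higher set of d2-FVFp and d3con, which overlapped each other. Within the lower set d0con, d3ko and d2-FVFn overlapped their neighbours.

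Mmp2 (chr8:92827290-92853421), a secreted gelatinase, had another pattern. It was at 3.12 and 3.84 TPM in d0con and at 3.75 and 4.79 TPM in d0ko. It was at 6.85, 12.70 and 11.51 TPM in d3con and at 16.97, 12.63 and 11.94 TPM in d3ko, so that the day 3 genotypes overlapped and both lay above day 0. The highest Mmp2 levels were in d2-FVFn, at 18.60 and 20.65 TPM, above the 12.86 and 13.89 TPM of d2-FVFp.

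**Figure D2:**
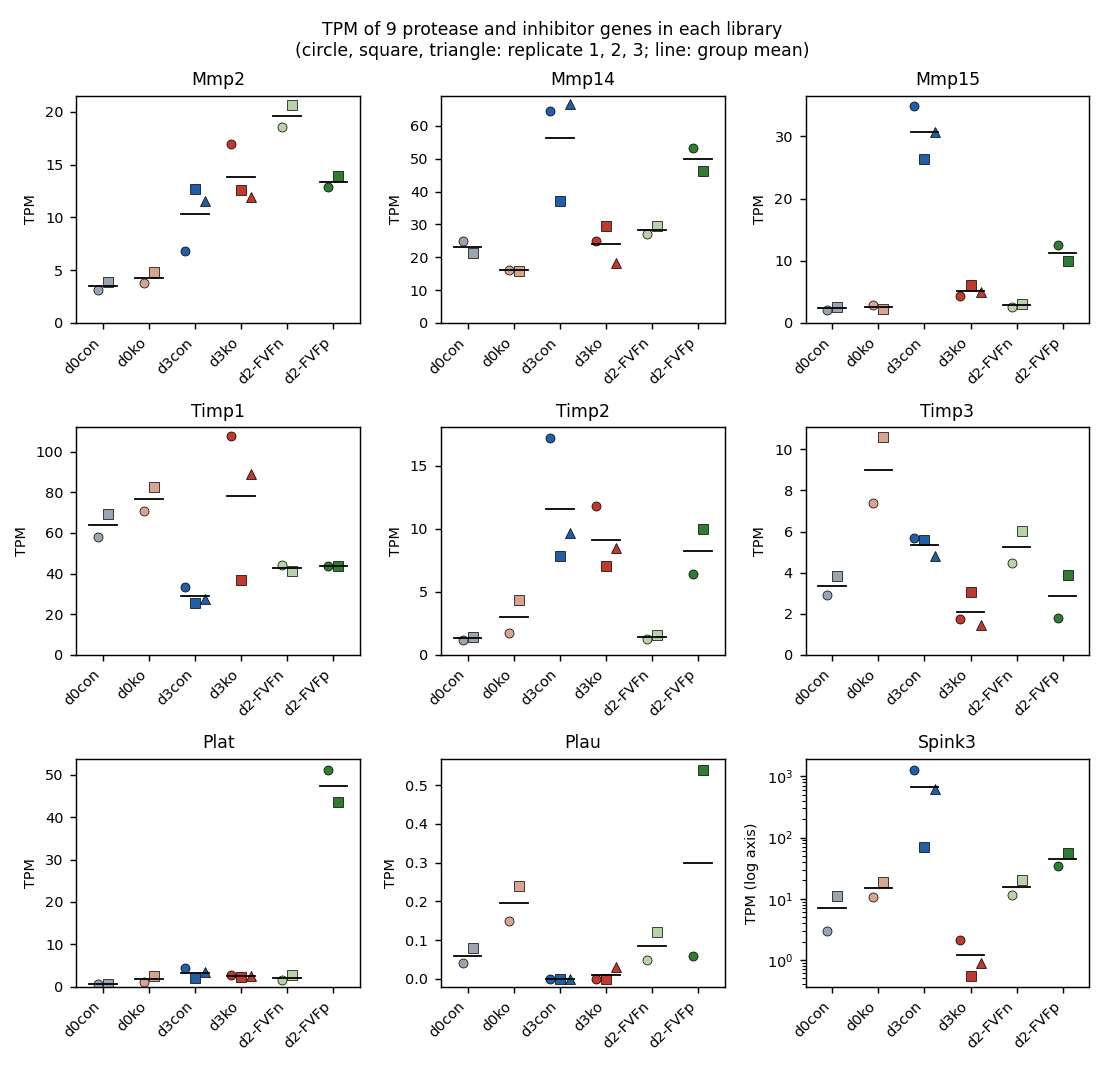
TPM of the 9 genes in each of the 14 libraries (Spink3 on a log axis, the others linear), with circle, square and triangle for replicates 1, 2 and 3 and a line at each group mean. Mmp15 reaches 26.39 to 34.91 TPM in d3con and at most 6.14 TPM in d3ko, and Plat reaches 43.60 and 51.16 TPM in d2-FVFp and at most 4.47 TPM elsewhere.

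Among the inhibitors, Timp1 (chrX:20870166-20874737), a soluble TIMP, was the most abundant in every library and made up 59.4% to 93.4% of the summed TPM of the 3 Timp genes. It was at 58.13 and 69.18 TPM in d0con and at 70.62 and 82.57 TPM in d0ko. In d3con it was at 33.46, 25.57 and 27.28 TPM, below all day 0 libraries. In d3ko it was at 107.81 TPM in replicate 1 and 89.05 TPM in replicate 3, above all day 0 libraries, but at 36.95 TPM in replicate 2, just above the d3con libraries. In d3ko replicates 1 and 3 the pluripotency markers, mostly Dppa5a, summed to 15400 and 17400 TPM. The part of this in the level of Timp1 was not tested. In the doxycycline line the 4 values lay between 41.12 and 44.33 TPM and the groups overlapped.

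Timp2 (chr11:118301061-118355411), the TIMP that takes part in the activation of pro-Mmp2, was at 1.20 and 1.39 TPM in d0con and at 1.73 and 4.33 TPM in d0ko. It was at 17.22, 7.83 and 9.68 TPM in d3con and at 11.78, 7.07 and 8.49 TPM in d3ko. The day 3 genotypes overlapped and all their libraries lay above day 0. Timp2 was also at 1.28 and 1.58 TPM in d2-FVFn and at 6.40 and 10 TPM in d2-FVFp. In d0con and d3con, though not within d3ko, its levels had the order of the fibroblast marker sum, which was lowest in d0con and, within d3con, 316.0 TPM in replicate 1 and 62.0 TPM in replicate 2, the libraries with the highest and lowest Timp2 of that group. In the doxycycline line the groups of 3.94 and 5.62 TPM (d2-FVFn) and 3.76 and 6.37 TPM (d2-FVFp) overlapped in that sum, while the 2 groups did not overlap in Timp2. The part of the fibroblast markers in the level of Timp2 at day 3 was not tested.

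Timp3 (chr10:86300412-86349505), the TIMP that binds to the extracellular matrix, had opposite orders of the days in the 2 genotypes. It was at 2.89 and 3.82 TPM in d0con and at 5.68, 5.57 and 4.82 TPM in d3con, all of them higher. It was at 7.39 and 10.61 TPM in d0ko and at 1.72, 3.06 and 1.45 TPM in d3ko, all of them lower. Timp3 was at 4.46 and 6.05 TPM in d2-FVFn and at 1.80 and 3.90 TPM in d2-FVFp.

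Plat (chr8:22757722-22782848), tissue-type plasminogen activator, was the member with the largest separation in the doxycycline line. It was at 1.47 and 2.81 TPM in d2-FVFn and at 51.16 and 43.60 TPM in d2-FVFp, a ratio of group means of 22.1. In the differentiation series it stayed low, at 0.66 and 0.73 TPM in d0con, 1.14 and 2.53 TPM in d0ko, 4.47, 1.92 and 3.52 TPM in d3con and 2.66, 2.16 and 2.60 TPM in d3ko. The d3con libraries lay above d0con and overlapped d3ko, and d0ko overlapped d3ko.

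Plau (chr14:20836662-20843388), urokinase-type plasminogen activator, was close to absent in all 14 libraries, with 0 to 11 expected counts each. It was listed at 0 in the 3 d3con libraries and in d3ko replicates 1 and 2, and at most 0.54 TPM was found, in d2-FVFp replicate 2. A count of 0 allows up to 3 counts, which is 0.11 to 0.212 CPM (counts scaled to a common library total) over the libraries here, for counting error only. Plau did not pass the filter of at least 1 CPM in 2 libraries, and no fold change is given.

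Spink3 (chr18:43728069-43737237, listed by RefSeq as Spink1) had the widest range of the 9 genes. It was at 2.99 and 11.28 TPM in d0con and at 10.59 and 18.89 TPM in d0ko. In d3con it was at 1289.35, 70.93 and 631.40 TPM, and in d3ko at 2.15, 0.54 and 0.88 TPM, which is below every day 0 library. The d3con replicates differed from each other by more than 10-fold, with the lowest value in replicate 2, the only d3con library of its clone. Spink3 was at 11.31 and 19.98 TPM in d2-FVFn and at 34.70 and 56.01 TPM in d2-FVFp, without overlap. Its fitted log2 fold change was 6.33 (SE 1.24) for d3con against d0con, -3.86 (SE 1.27) for d3ko against d0ko, -9.18 (SE 1.24) for d3ko against d3con and 1.48 (SE 0.38) for d2-FVFp against d2-FVFn, given as a description.

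The first comparison asked which members changed as control cells differentiated. Of the 8 members without Spink3, 7 were tested with edgeR's quasi-likelihood test, fitted to the 10 libraries of the differentiation series. A gene was called at an adjusted p under 0.05 and a change over 2-fold. In d3con against d0con 5 of the 7 rose and 1 fell, in a comparison in which 35.2% of 13899 genes were called. Mmp15 rose by 3.49 on the log2 scale (SE 0.26, adjusted p = 0.000132) and Timp2 by 2.98 (SE 0.54, adjusted p = 0.00203). Plat rose by 2.05 (SE 0.52, adjusted p = 0.0101), Mmp2 by 1.35 (SE 0.30, adjusted p = 0.00549) and Mmp14 by 1.09 (SE 0.29, adjusted p = 0.0124). Timp1 fell by 1.35 (SE 0.38, adjusted p = 0.0151). Timp3 differed by 0.48 (SE 0.34, adjusted p = 0.257). Against a null of 2-fold change, only Mmp15 and Timp2 passed, where 1553 of 13899 genes were called higher and 1040 lower. Without d0con replicate 1 or without d0con replicate 2 the number of called members was 3. All genes called were then 1869 higher and 1551 lower, and 1862 higher and 1643 lower. The fibroblast marker sum was higher in every d3con library (lowest 62.0 TPM, highest 316.0 TPM) than in d0con, whose values were 13.8 and 16.1 TPM. Of the defining markers Col1a1, Col3a1, Lum, Thy1 and Prrx1 had this order too. Dcn overlapped, at 2.6, 0.59 and 5.09 TPM in d3con against 1.18 and 0.99 TPM in d0con. The part of the fibroblast markers in these changes was not tested.

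The same step was then examined in cells without functional Foxa2. In d3ko against d0ko 1 of the 7 rose and 1 fell, where 17.3% of all genes tested were called. Mmp2 rose by 1.53 on the log2 scale (SE 0.30, adjusted p = 0.00709) and Timp3 fell by 2.29 (SE 0.33, adjusted p = 0.00227). Mmp15 had 0.84 (SE 0.23, adjusted p = 0.0257), which is under the 2-fold limit, and Timp2 had 1.44 (SE 0.49, adjusted p = 0.0528). Timp2 had 0.93 without d0ko replicate 1 and 2.21 without d0ko replicate 2, and 6 of the 21 alternatives called it. Mmp14, Plat and Timp1 had log2 fold changes of 0.42, 0.27 and -0.15. With only d3ko replicate 2 left in the group, whose spread was then taken from the other groups, Timp1 had -1.24 and Mmp15 1.07. Beside them Mmp2 was at 1.37 and Timp3 at -1.75. This setting was chosen after the marker values were seen.

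At day 3 the genotypes were compared directly. In d3ko against d3con 3 of the 7 members were lower and 1 was higher, and 8.26% of all genes tested were called. Mmp15 was lower in d3ko at a log2 difference of -2.59 (SE 0.21, adjusted p = 0.00226), Timp3 at -1.39 (SE 0.31, adjusted p = 0.0242) and Mmp14 at -1.23 (SE 0.26, adjusted p = 0.0209). Timp1 was higher in d3ko, at 1.43 (SE 0.35, adjusted p = 0.0327). Mmp2 had 0.43 (SE 0.26, adjusted p = 0.309), Plat -0.43 (SE 0.42, adjusted p = 0.55) and Timp2 -0.37 (SE 0.41, adjusted p = 0.608). These calls depended on the fit. With only the 6 day 3 libraries, Mmp15 was the sole member called. That fit called 7 genes higher and 60 lower of 13513. With only d3ko replicate 2 left in the group, Mmp15 had -2.36, Timp1 0.33, Timp3 -0.85 and Mmp14 -0.97. With replicates 1 and 3 summed within each genotype as 1 clone, no member was called, and Mmp15 had -2.48 (adjusted p = 0.0568). In that setting 0 genes were called higher and 1 lower of 13666. No member was called either without both replicate 1 libraries (75-base reads), where Mmp15 had -2.36 (adjusted p = 0.0604). There too 0 genes were called higher and 1 lower, of 13628. Leaving out 1 library at a time kept the call of Mmp15 in all 10 fits. Timp1 kept its call in 1 of them, the one without d3ko replicate 2, and Mmp14 and Timp3 lost theirs without d3con replicate 1 or 3 and without d3ko replicate 1 or 3.

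Mmp2, Mmp15 and Plat lie on chromosome 8, whose genes differed in level between d3ko replicate 2 and d3ko replicates 1 and 3. Over 512 genes of chromosome 8 the median deviation from the group mean, relative to the other autosomes, was -0.30 in d3ko replicate 2 and 0.17 and 0.14 in d3ko replicates 1 and 3 on the log2 scale. In the other libraries it lay between -0.04 and 0.04. Deviations from the mean of the 3 d3ko libraries do not tell which of them moved. The d3ko replicate 2 value of Mmp15, 6.14 TPM, was the highest of the 3 d3ko values, and the part of this difference in the values of the 3 genes was not tested.

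**Figure D3:**
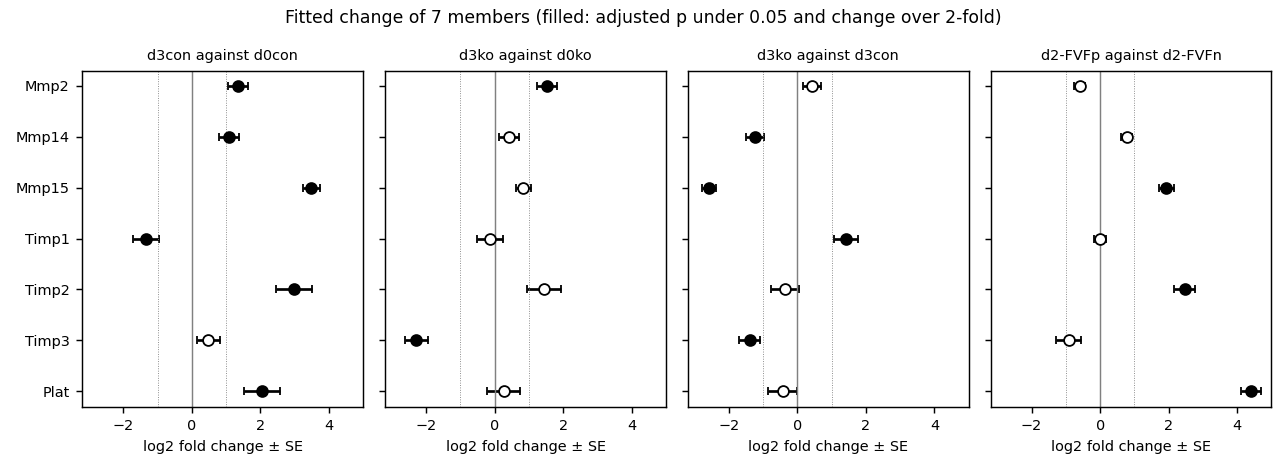
Fitted log2 fold change and its SE, derived from the F statistic of the test, for the 7 tested members in 4 comparisons. Filled points are called members, and dotted lines mark a 2-fold change. Mmp15 lies at 3.49 in d3con against d0con, at -2.59 in d3ko against d3con and at 1.93 in d2-FVFp against d2-FVFn.

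Undifferentiated cells of both genotypes were the background for these changes. In d0ko against d0con none of the 7 was called by edgeR, with 0% of all genes tested called. Of the 7 members 2, and of all genes 195, had an unadjusted p under 0.05. DESeq2 called 1 gene, lower in d0ko, and no member. On the log2 scale Timp3 differed by 1.38 (SE 0.37, adjusted p = 1), Plat by 1.35 (SE 0.55, adjusted p = 1) and Timp2 by 1.17 (SE 0.54, adjusted p = 1), and for these 3 genes both d0ko libraries lay above both d0con libraries. Without d0ko replicate 2 the difference was 0.70 for Plat and 0.39 for Timp2. The fibroblast marker sum was also higher in both d0ko libraries, at 41.0 and 149.0 TPM against 13.8 and 16.1 TPM, and its part was not tested. The d0con and d0ko values therefore also enter the difference of the day effects between genotypes. For that interaction edgeR called 0% of genes and no member, with 4 of the 7 members and 1840 of 13899 genes at an unadjusted p under 0.05. Mmp15 had -2.65 (SE 0.33, adjusted p = 0.0805) and Timp3 -2.76 (SE 0.48, adjusted p = 0.124). DESeq2 called 299 genes higher and 266 lower for the interaction, Mmp15 and Timp3 among them. Without d3ko replicate 2 edgeR called Mmp15, Timp3 and Timp1, in a fit that called 670 genes higher and 448 lower of 13802.

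Induction of Foxa2 in ESCs was the last comparison. Pluripotency markers summed to 7910 and 6380 TPM in d2-FVFn and to 5760 and 4230 TPM in d2-FVFp, and definitive endoderm markers to 8.45 and 7.22 TPM and to 19.6 and 13.0 TPM. In d2-FVFp against d2-FVFn 3 of the 7 members rose and none fell, where 8.43% of 12943 genes were called. Plat rose by 4.40 on the log2 scale (SE 0.29, adjusted p = 0.00082), Timp2 by 2.47 (SE 0.31, adjusted p = 0.00402) and Mmp15 by 1.93 (SE 0.22, adjusted p = 0.00325). Mmp14 had 0.77 (SE 0.15, adjusted p = 0.0173), which is under the 2-fold limit, as was Mmp2 at -0.60 (SE 0.17, adjusted p = 0.0499). Timp3 had -0.92 (SE 0.37, adjusted p = 0.129) and Timp1 -0.01 (SE 0.18, adjusted p = 0.965). The calls of Plat, Timp2 and Mmp15 held with any 1 of the 4 libraries left out, and without d2-FVFp replicate 2 Timp3 was called as well. Mmp15 was not called by DESeq2 against a null of 2-fold change. The cells are sorted by the Venus of the Foxa2 fusion, so both groups had received doxycycline, and the sort and the presence of Foxa2 cannot be told apart.

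Since the Mmp and Timp products act on each other, their summed TPM was set side by side. Mmp2, Mmp14 and Mmp15 together were at 30.1 and 27.6 TPM in d0con and 22.7 and 23.0 TPM in d0ko, below the Timp sum of 62.2 and 74.4 TPM in d0con and 79.7 and 97.5 TPM in d0ko. In d3con the Mmp sum was 106.0, 76.3 and 109.0 TPM and the Timp sum 56.4, 39.0 and 41.8 TPM, so the Mmp sum was the larger in all 3 libraries. In d3ko the Mmp sum was 46.2, 48.3 and 35 TPM and the Timp sum 121.0, 47.1 and 99.0 TPM. The Timp sum was thus the larger in d3ko replicates 1 and 3, and the sums nearly met in replicate 2. These orders hold for the members only. Mmp9 and Mmp13, which are not in the sums, had means of 34.1 and 28.7 TPM in d3ko, and Mmp13 had 19.3 TPM in d3con. In d2-FVFp the Mmp sum, at 78.6 and 70.3 TPM, was above the Timp sum of 52.1 and 57.5 TPM, whereas in d2-FVFn the sums were 48.4 and 53.2 TPM against 50.1 and 48.7 TPM.

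The level of Timp2 relative to Mmp14, partners in the activation of pro-Mmp2, was 0.0483 and 0.0657 in d0con and 0.108 and 0.271 in d0ko. It was 0.266, 0.21 and 0.145 in d3con, 0.473, 0.239 and 0.469 in d3ko, 0.0471 and 0.0536 in d2-FVFn and 0.12 and 0.216 in d2-FVFp. Mmp14 exceeded Timp2 in every library, and the day 3 genotypes overlapped in this ratio.

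**Figure D4:**
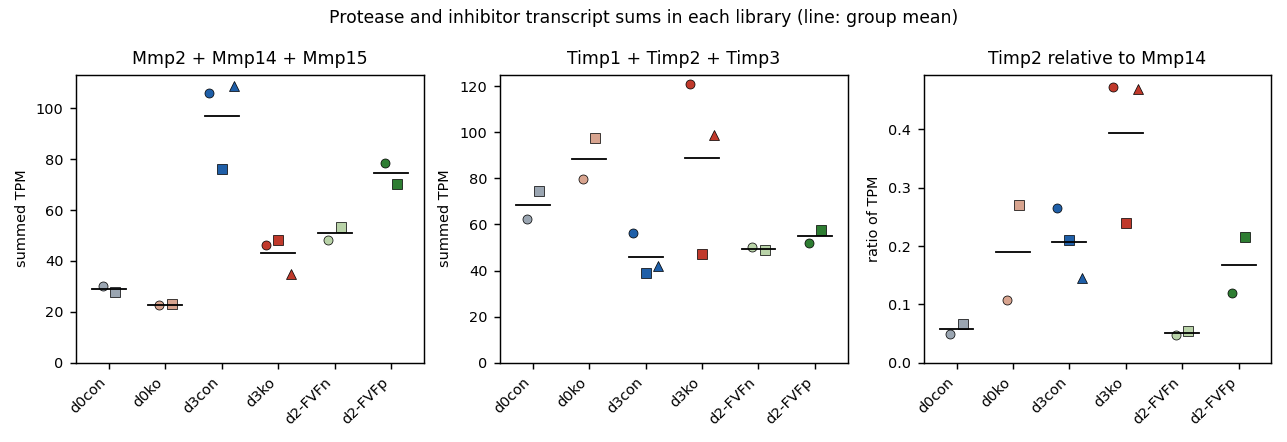
Summed TPM of the 3 Mmp members, summed TPM of the 3 Timp members and the TPM ratio of Timp2 to Mmp14 in each of the 14 libraries, with a line at each group mean. The Mmp sum is 76.3 to 109.0 TPM in d3con and at most 48.3 TPM in d3ko, and the Timp sum of d3ko splits into 47.1 TPM in replicate 2 and 99.0 and 121.0 TPM in the others.

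Other genes of the extracellular protease pathways were counted in 6 lists of 90 genes, 89 of which were in the tables. In d3con against d0con 18 of 55 tested genes rose and 10 fell, which is 50.9% called beside 35.2% of all genes tested. Without d0con replicate 2 the number called was 17, against 28 with all libraries. The median log2 fold change of the 55 was 0.40, beside 0.07 over all genes. By list, 7 of 18 ADAM and ADAMTS proteases rose and 3 fell, as did 4 and 3 of 11 serine proteases, 3 and 2 of 8 plasminogen system genes and 2 and 1 of 10 other matrix metalloproteases. Of 4 metalloprotease inhibitors and activators 2 rose, and of 4 serine protease inhibitors 1 fell. Tmprss2, a transmembrane serine protease, rose from a mean of 0.175 to 73.2 TPM (log2 fold change 8.49, SE 1.53, adjusted p = 0.00201). Proc, the precursor of the anticoagulant protein C, rose from 0.445 to 15.5 TPM (4.92, SE 1.14, adjusted p = 0.00656), and Mmp13, a collagenase, from 0.74 to 19.3 TPM (4.53, SE 1.25, adjusted p = 0.0143). Plaur, the receptor of urokinase, fell by 2.94 (SE 0.39, adjusted p = 0.00057), from 90.9 to 13.6 TPM. Serpini1 (neuroserpin), an inhibitor of Plat, fell by 3.27 (SE 0.56, adjusted p = 0.00159), and the kallikrein Klk1 fell by 3.82 (SE 1.29, adjusted p = 0.0327). Mmp13 was at 40.38, 3.93 and 13.69 TPM in d3con, highest and lowest in the same libraries as the fibroblast marker sum, and the part of the latter was not tested.

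In d3ko against d0ko 11 of the 55 listed genes rose and 6 fell, or 30.9% beside 17.3% of all genes, with a median of 0.24 beside 0.071. The largest increases at a mean of at least 5 TPM were those of Mmp13 (log2 fold change 4.20, SE 1.19, adjusted p = 0.0276), of the gelatinase Mmp9 (4.07, SE 0.93, adjusted p = 0.0122) and of Reck, a membrane-anchored metalloprotease inhibitor (3.52, SE 0.58, adjusted p = 0.00342). The secreted metalloprotease Adamts7 fell by 3.67 (SE 0.34, adjusted p = 0.000656), Plaur by 1.75 (SE 0.38, adjusted p = 0.0106) and Serpini1 by 1.70 (SE 0.53, adjusted p = 0.0399). Mmp9 was at 75.72 TPM in d3ko replicate 1 and at 12.87 and 13.57 TPM in replicates 2 and 3, against 1.64 and 2.01 TPM in d0ko. Without d0ko replicate 1 the number of listed genes called was 1 and without d0ko replicate 2 it was 5, against 17 with all libraries.

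In d3ko against d3con 1 of the 55 listed genes was higher and 3 were lower, or 7.27% beside 8.26% of all genes, with a median of -0.06 beside 0.019. The 3 lower ones were all serine proteases, of 11 tested: Proc, Tmprss2 and the coagulation factor gene F10. F10 falls outside the naming rule and was named after its values were seen. Proc was at 24.58, 1.47 and 20.48 TPM in d3con and at 0, 0 and 0.04 TPM in d3ko, and Tmprss2 at 94.64, 27.24 and 97.60 TPM and at 0.28, 9.61 and 2.52 TPM. Their log2 fold changes were -9.25 (SE 1.33, adjusted p = 0.00986) for Proc and -4.18 (SE 0.96, adjusted p = 0.0267) for Tmprss2, and the former depends on the prior count of the fit, since 2 libraries were at 0. A2m, the general protease inhibitor alpha-2-macroglobulin, was higher in d3ko, at 5.55, 9.69 and 10.02 TPM against 0.43, 2.58 and 0.75 TPM (2.76, SE 0.58, adjusted p = 0.0209). The number called was 1 without d3con replicate 1 or 3, 8 without d3con replicate 2 and 13 without d3ko replicate 2. Over all genes the last fit called 1280 higher and 969 lower, against 660 and 488 with all libraries. Without d3con replicate 1 it was 76 and 143, without d3con replicate 2 it was 718 and 571, and without d3con replicate 3 it was 9 and 71. No listed gene was called here with only the 6 day 3 libraries, where 7 genes in all were called higher and 60 lower. In d0ko against d0con no listed gene was called by edgeR or DESeq2, with 1 at an unadjusted p under 0.05 by edgeR. For the interaction edgeR called none, with 5 at an unadjusted p under 0.05, and DESeq2 called 2.

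In d2-FVFp against d2-FVFn 12 of 48 listed genes rose and 1 fell, or 27.1% beside 8.43% of all genes, with a median of 0.61 beside 0.01. Without d2-FVFn replicate 1 the number of listed genes called was 6, against 13 with all libraries. Prss23, a secreted serine protease, was at 0.61 and 1.84 TPM in d2-FVFn and at 12.52 and 25.49 TPM in d2-FVFp (3.88, SE 0.52, adjusted p = 0.00495). Timp4, the TIMP not among the members, was at 0.25 and 0.83 TPM and at 6.67 and 7.31 TPM (3.58, SE 0.53, adjusted p = 0.00715). Mmp9 was at 1.39 and 1.03 TPM and at 7.83 and 8.66 TPM (2.73, SE 0.28, adjusted p = 0.00218). The metalloprotease Adam19 fell by 1.03 (SE 0.17, adjusted p = 0.0101), from 20.4 to 10.3 TPM. Plaur, named here after its values were seen, was at 34.62 and 33.89 TPM in d2-FVFn and at 100.69 and 221.57 TPM in d2-FVFp (2.19, SE 0.34, adjusted p = 0.00834). Plat and Plaur were thus both higher in d2-FVFp, while Plau, whose protein binds Plaur, stayed at or below 0.54 TPM.

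**Figure D5:**
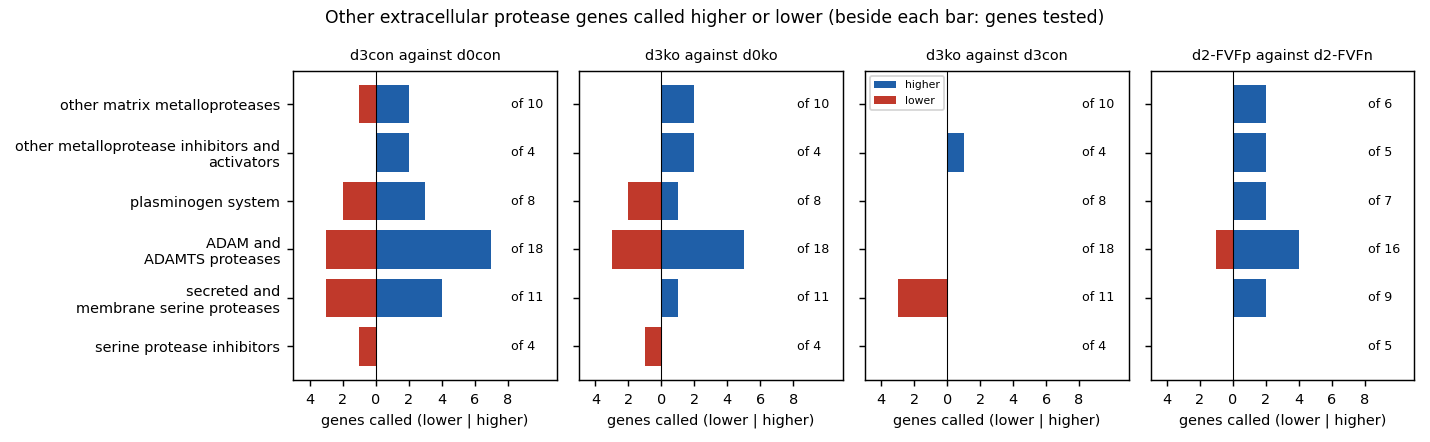
Number of genes called higher (blue, to the right) and lower (red, to the left) in each of 6 lists of other extracellular protease genes in 4 comparisons, with the number tested beside each bar. In d3ko against d3con the 3 lower calls are serine proteases, and in d2-FVFp against d2-FVFn 12 of the 13 calls are higher.

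Finally, the genes most like each member were taken by Pearson's r of log2(TPM + 1) over the 14 libraries, which share groups, so that r mostly follows the group means and is a description. Mmp15 was most like Cadps2 (r = 0.977), Tph1 (0.974) and Emid1 (0.974), and Mmp14 like Stk32a (0.939), Zfp618 (0.932) and Clint1 (0.93). Timp1 was most like the pluripotency factor gene Klf4 (r = 0.971), which is also in the pluripotency list, followed by Lrriq4 (0.962) and Gm13251 (0.962). Spink3 was most like Cldn6 (r = 0.942), Foxa3 (0.942) and Proc (0.938), the serine protease gene described above. Timp2 was most like Nktr (0.958), Cyba (0.957) and Olfml3 (0.951). Plat was most like Emp2 (0.966), Galnt16 (0.962) and Enpp1 (0.96), and Mmp2 like Man2a1 (0.968), 9430015G10Rik (0.955) and AW549877 (0.943). Timp3 had the lowest values, with Wdr61 at 0.808 and Ninl at 0.787. For Plau the genes were Edn1 (0.94), Fosl1 (0.877) and Lif (0.869), from at most 11 counts per library.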

How the data were processed

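RNA of FACS-sorted cells was turned into cDNA with the SMART-Seq low input kit and sequenced. Alignment by the authors was to mm10 with STAR, and quantification was with RSEM (versions not given in the sources used here). The deposited expected counts are estimated reads per gene, which can be fractional and carry no scaling. For the deposited TPM values the authors corrected for gene length and library total. Effective lengths point to 75-base reads in replicate 1 of both day 3 groups and 50-base reads elsewhere.

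Groups and replicate numbers came from the sample titles and clones from the protocols. The study calls the day 0 and day 3 replicates biological. For the d2 libraries the sources used here do not say, so p-values there measure a spread between libraries that may be technical. Expected counts were rounded, genes with at least 1 CPM in at least 2 libraries were kept, and TMM scaling preceded the test with edgeR 4.0.16 (quasi-likelihood, R 4.3.3, limma 3.58.1), with Benjamini-Hochberg adjustment over 13899 genes (10 day 0 and day 3 libraries) or 12943 genes (4 d2 libraries). Calls needed an adjusted p under 0.05 and a log2 change over 1 in size. Each SE printed is the size of the log2 change divided by the square root of the F statistic of the test. It was not estimated separately, and for Spink3 it carries the same information as that statistic. DESeq2 1.42.0, which the study used, was an alternative, beside other scaling, filters, a test against a 2-fold change, only the 2 groups compared, a block for the replicate number and leaving libraries out. Same-numbered d0 and d3 libraries of a genotype share a clone. Their deviations from the group means had r = -0.02 to 0.06, and the block changed no call of a member there. The code was tested on simulated data.

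The members and lists were chosen with earlier results of these data known. Named were all members, up to 3 called list genes per direction at a mean of at least 5 TPM in the higher group (largest change first), and per member the 3 genes with the highest r among genes reaching 5 TPM, 1 of which is not reported here. Positions and promoters are from RefSeq (GRCm38.p6). Figures were drawn with matplotlib 3.10.9.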

Additional observations from a re-analysis of the deposited data

Results flagged for a closer look

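Timp3 was flagged because its day 0 and day 3 libraries had opposite orders in the 2 genotypes. Only the members were searched for this, and the share of all genes with such an order was not counted. Every d3con library, at 4.82 to 5.68 TPM, was above every d0con library, at 2.89 and 3.82 TPM, and every d3ko library, at 1.45 to 3.06 TPM, was below every d0ko library, at 7.39 and 10.61 TPM. The change with time was 0.48 on the log2 scale in the controls (adjusted p = 0.257, not called under any of the 21 alternatives) and -2.29 in the knockouts (adjusted p = 0.00227), both by edgeR. The difference of the 2 day effects was -2.76 on the log2 scale (SE 0.48, adjusted p = 0.124 by edgeR), so it did not pass the threshold.

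Spink3 showed the same kind of opposite order. It was at 2.99 and 11.28 TPM in d0con and at 70.93 to 1289.35 TPM in d3con. In the knockouts it was at 10.59 and 18.89 TPM in d0ko and at 0.54 to 2.15 TPM in d3ko. The difference of the day effects was -10.19 on the log2 scale (SE 1.73). It was not tested, since the gene had been picked for this pattern.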

How the results depend on the processing

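Of the fitted changes of single members under all alternatives, 819 kept direction and call, 61 lost the call, 16 gained it and 10 changed sign. Another 6, all of Spink3, moved by more than the spread between replicates. Spink3 has no call, and it counts among the 819 where it moved by less than that spread. The cause of these shifts was not tested. The number of members called was 6 in d3con against d0con, 2 in d3ko against d0ko, 4 in d3ko against d3con, 0 for the interaction and 3 in d2-FVFp against d2-FVFn. It became 2, 1 and 1 in the first 3 of these with edgeR against a null of 2-fold change. All genes called higher and lower were there 1553 and 1040, 346 and 138, and 154 and 130. DESeq2 against that null in only the groups compared, an alternative added after seeing the data, called 2, 0 and 1 members. All genes called were there 1392 and 902, 319 and 92, and 162 and 150. In d3ko against d3con the number of members was 1 with only the 2 groups compared and 0 without both 75-base libraries. It was 0 with replicates of 1 clone summed, a setting added after seeing the data. In the same order all genes called higher and lower were 7 and 60, 0 and 1, and 0 and 1. The fit without d3ko replicates 1 and 3, also added then, left 1 library in that group, and no count is given for it. For the interaction DESeq2 gave 2 members, with 299 genes higher and 266 lower in all. No filter gave 1 member, with 0 genes higher and 16 lower in all. Leaving out 1 library gave 3 to 6, 1 to 3, 1 to 4 and 0 to 3 members in the first 4 comparisons. The number of all genes called moved as well. In d3con against d0con 1869 were higher and 1551 lower without d0con replicate 1, against 2863 and 2027 with all libraries. In d3ko against d3con 9 were higher and 71 lower without d3con replicate 3 and 1280 and 969 without d3ko replicate 2, against 660 and 488.

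Of the other listed genes 28, 17, 4, 0 and 13 were called in the same 5 comparisons. The test against 2-fold gave 18, 4 and 1 in the first 3 and 4 in d2-FVFp against d2-FVFn. DESeq2 against 2-fold gave 17, 6, 2 and 5. The totals over all genes in the first 3 are those given above for these tests. In d2-FVFp against d2-FVFn 275 genes in all were higher and 21 lower with edgeR, and 221 and 12 with DESeq2. With only the 2 groups compared, 11 listed genes were called in d3ko against d0ko, where 868 genes in all were higher and 477 lower. In d3ko against d3con that setting called 0 listed genes, with 7 genes higher and 60 lower in all. There DESeq2 called 8 listed genes, with 997 genes higher and 681 lower in all. The fits without both 75-base libraries and with clones summed called 0 listed genes there. Each of those fits called 0 genes higher and 1 lower in all. DESeq2 called 2 listed genes for the interaction. No filter gave 20 in d2-FVFp against d2-FVFn, with 1218 genes higher and 330 lower in all. Leaving out 1 library gave 17 to 30, 1 to 22, 1 to 13, 0 to 7 and 6 to 15. Over all genes, d3ko against d0ko without d0ko replicate 1 had 344 called higher and 323 lower, against 1613 and 795 with all libraries. For d2-FVFp against d2-FVFn without d2-FVFn replicate 1 the numbers were 489 and 73, against 901 and 190.

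With a replicate block in edgeR, d3ko against d3con kept 3 members (Timp1 was lost, adjusted p = 0.0603) and 2 other listed genes. In that fit 415 genes in all were called higher and 401 lower. No other comparison changed its member calls under the block. The con and ko libraries of 1 number come from different clones. Their deviations had r = 0.5, 0.29 and -0.01 at day 3, the highest in replicate 1, whose libraries had 75-base reads. The numbers were not taken to pair them in the main fit, and a batch shared by number was not tested. The block is by replicate number and does not model clones.

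Changes of sign affected log2 fold changes that were not called. Leaving out 1 library gave -0.45 to 0.19 for Timp1 and -0.18 to 0.92 for Plat in d3ko against d0ko, -0.62 to 0.08 for Timp2 in d3ko against d3con, -0.14 to 0.23 for Mmp15 in d0ko against d0con, -0.05 to 0.07 for Timp1 in d2-FVFp against d2-FVFn and -0.03 to 0.34 for Mmp2 in the interaction, which was -0.22 without both 75-base libraries. Depth limits Plau, at 0 to 11 counts, and Spink3 in d3ko, at 2 to 7 counts.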

Other observations

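A pair of listed proteases, named after their values were seen, differed within a day 3 group between replicate 2, which is 1 clone, and replicates 1 and 3, which are another. Klk1, a kallikrein, was at 11.49 and 14.75 TPM in d3ko replicates 1 and 3 and at 0.37 TPM in replicate 2, against 8.12 and 5.22 TPM in d0ko. Adam19 was at 15.22 and 16.20 TPM in d3con replicates 1 and 3 and at 52.49 TPM in replicate 2. Klk1 was high in the d3ko libraries whose pluripotency markers summed to 15400 and 17400 TPM and low in the one at 2670 TPM.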
